A study of Mus musculus with 25 samples.

Results

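The stable high-count intervals are stretches of the mouse genome between neighbouring SmaI/XmaI restriction sites whose counts were high in all 5 groups of the study and nearly the same between them. An interval was taken if it lay on chromosomes 1 to 19, was 500 to 2499 bp long, had a lowest group mean of at least 100 CPM (counts scaled to a library total of 1000000), and had a highest group mean of at most 1.5 times the lowest. Of 22749 intervals in the deposited table, 14858 lay on these chromosomes within the length range, 1831 of those passed the level limit, and 1608 also passed the ratio limit. The members were thus 10.8% of the intervals of their length and 87.8% of those at the level limit. All 5 group means were used to choose them, so their level and evenness are described here and not tested.

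The counts came from MSA-seq, an assay of DNA methylation, on genomic DNA of 25 FVB mice with 5 mice per group. Pancreatic islets, which are clusters of hormone-secreting cells, came from mice of postnatal day 21 (P21) or 180 (P180). They were taken from control mice reared in litters of 9 pups and from small-litter mice reared in litters of 4 pups until P21. Whole pancreas of control mice at P21, almost all of it acinar tissue that secretes digestive enzymes, served as the exocrine group. Islets were picked by hand, so an islet library can hold some DNA of other cells.

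CpG methylation at high density is a feature of silenced or inactive DNA in mammals, and most CpG sites outside promoters and CpG islands are methylated in most adult tissues. In MSA, SmaI cuts its site only when the CpG in it is unmethylated and leaves blunt ends, and XmaI then cuts the same site when it is methylated and leaves overhangs. Adaptors join only the overhangs, so an interval is amplified when the sites at both of its ends are methylated on the same molecule. A count therefore follows methylation of a pair of sites, but it also depends on how well a product of that length and sequence amplifies and on how many copies of it the genome holds. No percentage of methylation can be read from it, and the word methylated is used here only for this relation.

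Total counts ran from 2912624 to 10591677 per library, and the median member had 522 to 2015 counts in a library. These features of the libraries touch the members. Small-litter P21 islet replicate 1 stood apart, with a standard deviation of the members' log2 deviation from the group mean of 0.609 against a median of 0.204 over all libraries. That library listed 448 intervals at 0 counts, control P21 islet replicate 3 listed 277 and small-litter P180 islet replicate 2 listed 205, against a median of 17. Libraries also differed by interval length: the correlation of a library's deviation with length over the members ran from -0.612 to 0.578. No 2 replicates of a group were near-identical over the members (correlations of log2 counts of 0.560 to 0.976), and since the litters of the mice are not given, p-values measure only the spread between these samples.

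Most members lay not far above the level limit. The lowest group mean had a median of 165 CPM, 660 members lay between 100 and 150 CPM, and 394 lay between 150 and 200 CPM. A further 535 members lay between 200 and 500 CPM, 16 between 500 and 1000 CPM, and 3 above 1000 CPM. Per kilobase of interval, the mean over groups had a median of 229 CPM in members and 12.8 CPM in the other 13250 intervals of the length range. Together the members held 35.4% of all counts, averaged over libraries, with 31.5% in the lowest library and 39.5% in the highest.

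The ratio of the highest to the lowest group mean had a median of 1.22. It was at most 1.1 in 171 members, between 1.1 and 1.2 in 523, between 1.2 and 1.3 in 441, between 1.3 and 1.4 in 287 and above 1.4 in 186. Over the 4 islet groups alone its median was 1.11. The exocrine mean divided by the mean of the islet groups had a median of 1.07 and ran from 0.693 to 1.46. Exocrine tissue was the highest group at 830 members, small-litter P180 islets at 406, control P21 islets at 147, control P180 islets at 124 and small-litter P21 islets at 101. The lowest group was small-litter P21 islets at 438 members, exocrine tissue at 394, control P180 islets at 379, control P21 islets at 347 and small-litter P180 islets at 50. Exocrine tissue thus held the highest mean most often. The lowest mean was shared more evenly among all groups but small-litter P180 islets, which held it at 50 members. Of the 223 intervals that met the level limit but not the ratio limit, 154 had their highest mean in exocrine tissue.

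**Figure D1:**
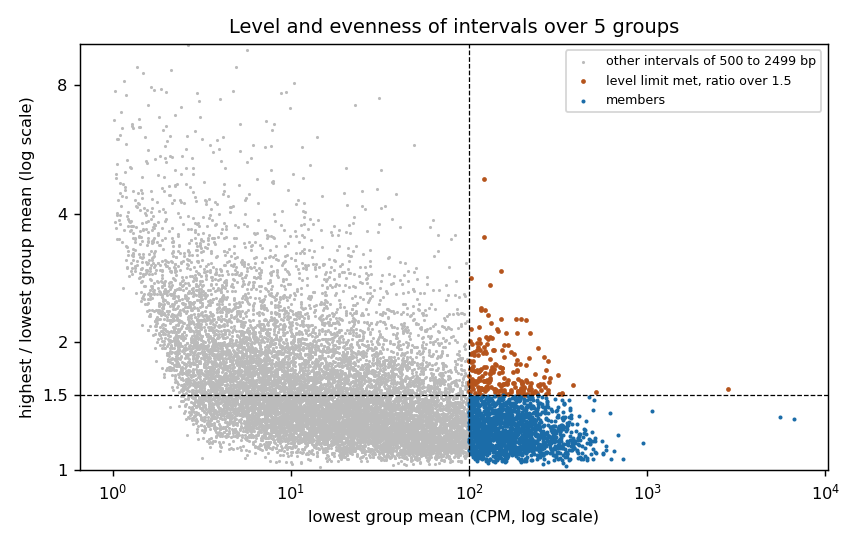
Lowest group mean (x axis, CPM, log scale) against the ratio of the highest to the lowest group mean (y axis, log scale) for each interval of 500 to 2499 bp; dashed lines mark the limits of 100 CPM and 1.5. The 1608 members (blue) fill the lower right corner, the 223 intervals over the ratio limit (orange) lie above them, and the ratio spreads more widely at low levels.

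The limits cut through a continuous range. The member nearest to the ratio limit, chr8:108466023-108467081 (coordinates on build mm9 as the table gives them), had a ratio of 1.498, with group means of 233 CPM in control P21 islets and 155 CPM in exocrine tissue. The nearest interval outside, chr11:70422608-70423209, had a ratio of 1.5003, with 316 CPM in exocrine tissue and 211 CPM in control P180 islets. The member nearest to the level limit, chr18:69821116-69821920, had a lowest group mean of 100.04 CPM, and the nearest interval below it, chr1:37440051-37441203, had 99.95 CPM. Outside the length range, 238 of the 266 shorter autosomal intervals at the level limit also met the ratio limit (89.5%), as did 5 of 5 longer ones, and on the sex chromosomes 6 of 6 intervals did.

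The 6 members with the highest levels began with a pair on chromosome 17. In control P21 islets, chr17:39981602-39983065 had 5058, 4582, 5962, 7299.8 and 11187 CPM in the 5 mice, and in small-litter P21 islets it had 5483, 6792, 7525, 7841 and 11009.6 CPM. The same interval had 3616, 9245, 9745, 7418 and 8048 CPM in control P180 islets and 6154, 6111, 6713, 7577 and 6694 CPM in small-litter P180 islets. In exocrine tissue it had 11327, 7854, 11296, 1745 and 11552 CPM. Mice of 1 group thus differed more than the group means, which alone the rule limited. The group means were 6818, 7730.1, 7615, 6649.6 and 8755 CPM, and exocrine replicate 4 lay below every other library. The second of the pair, chr17:39983805-39985224, had group means of 6160.0, 7117, 7464, 5941 and 5607 CPM in the same order and was again lowest in exocrine replicate 4, at 1184 CPM. The median coefficient of variation (CV, the standard deviation as a percentage of the mean) between mice of a group was 31.8% for the first and 41.6% for the second.

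Both lie in a run of 8 abutting intervals from position 39979252 to 39985652 of chromosome 17, all of them above 100 CPM in every group. As background from general knowledge of mm9, with no annotation used here, this stretch holds Rn45s, a copy of the precursor transcript of the large ribosomal RNAs, which are encoded by many tandem copies. The 8 intervals together took 0.824% of the counts of exocrine replicate 4 and 5.95% of those of control P180 islet replicate 3. By group the share was 3.56% ± 0.995 (SD, n = 5) in control P21 islets, 3.86% ± 0.830 in small-litter P21 islets and 4.06% ± 1.43 in control P180 islets. It was 3.30% ± 0.155 in small-litter P180 islets and 3.75% ± 1.83 in exocrine tissue, so the ranges of the groups overlapped. The deviations of the 2 members from their group means had a correlation of 0.932 over the 25 libraries, as a description of points that share library and depth. Copy number of the repeat and methylation of its sites cannot be told apart in these counts.

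The other 4 of the 6 highest members were single intervals on 4 chromosomes. At chr2:92812929-92813782, which held its level closely, control P21 islets had 1063, 915, 1127, 980.3 and 1158 CPM, and small-litter P21 islets had 1059.7, 864, 890.0, 1033 and 1174 CPM. Control P180 islets had 1195, 908, 1327, 988 and 1042 CPM there, small-litter P180 islets had 962, 1107, 1169, 1084 and 1069 CPM, and exocrine tissue had 872, 864, 958, 982 and 1047 CPM. All groups overlapped at this interval, and its median CV between mice was 9.64%. Its means were 1049 ± 101, 1004 ± 128, 1092 ± 168, 1078 ± 75.4 and 944 ± 77.2 CPM (SD, n = 5). At chr11:60525060-60525811 exocrine tissue was the lowest group, at 1067 ± 178 CPM against islet means of 1352 to 1468 CPM (SD, n = 5). The lowest single value there was 797 CPM in exocrine replicate 1, and the highest was 1794 CPM in control P21 islet replicate 1. Group means ran from 735 to 783 CPM at chr18:32418262-32418865 and from 685 to 827 CPM at chr5:114187876-114188745.

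**Figure D2:**
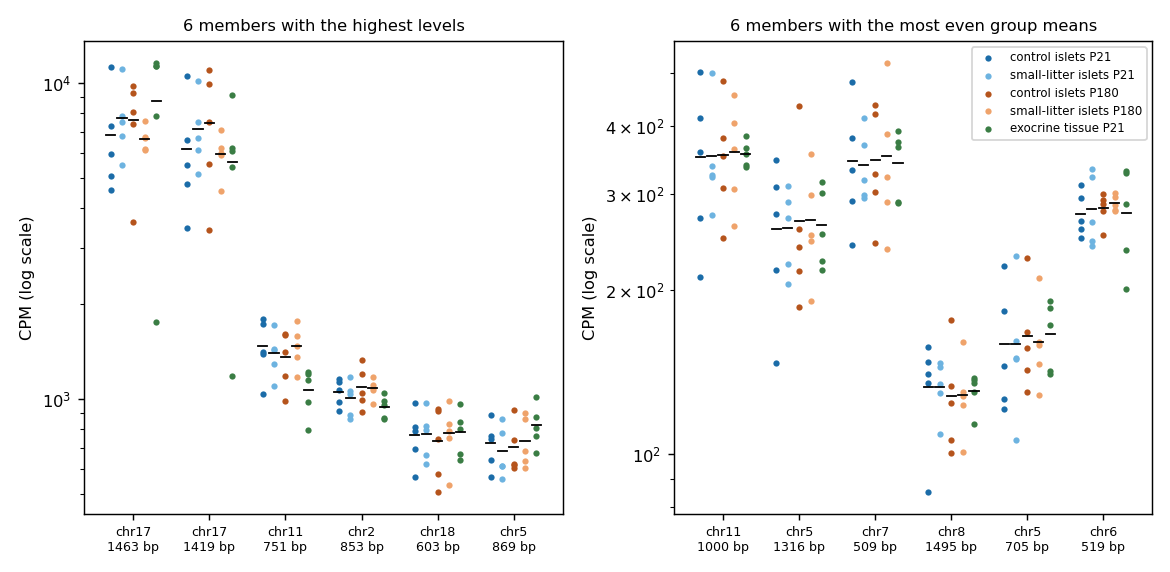
CPM in each mouse (points, log scale) and group means (bars) at the 6 members with the highest lowest-group mean (left) and at the 6 with the smallest ratio between group means (right), named by chromosome and length. The pair on chromosome 17 spreads widely between mice of 1 group, with exocrine replicate 4 at 1745 and 1184 CPM, and on the right even group means stand beside points that differ by more than the means do.

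Even group means did not imply that single mice were alike. The smallest ratio of all, 1.02, belonged to chr11:60280679-60281679, with group means of 351, 352, 354, 358 and 356 CPM. Its values were 272, 212, 414, 358 and 501 CPM in control P21 islets, 322, 275, 337, 325 and 501 CPM in small-litter P21 islets, and 307, 352, 483, 249 and 379.8 CPM in control P180 islets. They were 263, 405, 455, 307 and 363 CPM in small-litter P180 islets and 336, 339.5, 383, 355 and 364 CPM in exocrine tissue. The spread between mice was thus wide in each islet group, with a median CV over the 5 groups of 24.6%, while exocrine tissue had a CV of 5.36%. A member even in both senses was chr6:87100831-87101350, with group means of 276 to 289 CPM and a median CV of 9.39%. The other 4 most even members, chr5:113928476-113929792, chr7:135283482-135283991, chr8:86452585-86454080 and chr5:121387718-121388423, had group means that differed by less than the smallest SD of any of their groups, which was 9.95 CPM at chr8:86452585-86454080.

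The rule used group means and set no limit on the spread between mice. The median CV between mice was 13.9% in members and 16.5% in the 223 intervals over the ratio limit. It was 15.6% in intervals of the length range with a lowest group mean of 50 to 100 CPM, 24.8% in all of that range below 100 CPM and 26.6% in all intervals. If reads were independent, counting alone would give members a CV of 3.27%, but amplified reads are not, and the counting part of the spread is not known. A CV of at most 20% was found in 85.7% of members and in 30.8% of all intervals. A high mean itself lowers counting error, and a small spread makes even group means more likely, so these shares describe the members and are not a separate test of their stability.

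Members were compared with the intervals over the ratio limit with scaling by the library total only. Within each level band the members then still had the lower median CV. It was 14.3% in members of 100 to 150 CPM and 16.3% in the 123 intervals of that band over the ratio limit, 14.5% and 18.1% at 150 to 200 CPM, 13.0% and 16.0% at 200 to 300 CPM, and 12.5% and 15.5% from 300 CPM. By group the median over members was 15.6% in control P21 islets, 15.1% in small-litter P21 islets, 13.4% in control P180 islets, 12.9% in small-litter P180 islets and 12.1% in exocrine tissue. Without small-litter P21 islet replicate 1 the median CV over the members so chosen was 13.5%.

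**Figure D3:**
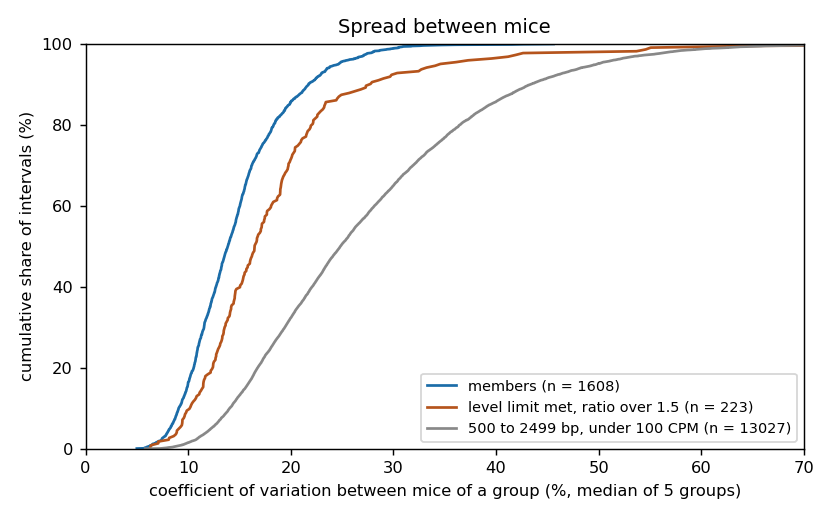
Cumulative share of intervals (y axis, %) up to a given coefficient of variation between mice of a group (x axis, %, median of the 5 groups). The curve of the members has its middle at 13.9%, that of the 223 intervals over the ratio limit at 16.5%, and that of the 13027 intervals of the length range below 100 CPM at 24.8%.

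The least variable member, chr1:36751717-36752510, had 125, 107, 132, 142 and 149 CPM in control P21 islets, 136, 133, 126, 130.2 and 144 CPM in small-litter P21 islets, and 167, 169, 164, 169 and 173 CPM in exocrine tissue. Its median CV was 5.00%, and each exocrine mouse was above each P21 islet mouse although the interval passed the ratio limit. At the other end, chr12:111610468-111611286 had a median CV of 45.6%. It had 127, 97.3, 127, 106 and 263 CPM in control P21 islets, 92.7, 87.8, 86.3, 135 and 236 CPM in small-litter P21 islets, and 118, 102, 243, 95.9 and 114 CPM in control P180 islets. In each of those groups 1 mouse lay far above the other 4.

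Single mice were read against the mean of the other 4 mice of their group, a measure added after the values were seen. Of 1608 members, 1096 (68.2%) had at least 100 CPM in all 25 libraries, and 50 (3.11%) had under 50 CPM in some library. In 138 of the 40200 combinations of a member and a library, the library was under 50% of the other 4 mice, and in 21 it was over 200%. These 138 fell on 108 members, so 1500 members had none. Small-litter P21 islet replicate 1 held 79 of them, 39 of which were under 25% and 22 under 10% of the other mice. Control P21 islet replicate 3 held 16, control P21 islet replicate 2 held 9, small-litter P180 islet replicate 2 held 7, and 11 libraries held none. Among other intervals with a mean of at least 10 CPM, 14.1% were under 50% in small-litter P21 islet replicate 1, against 4.91% of the members. In control P180 islet replicate 3 it was 15.8%, against 0.311% of the members. Those intervals reach lower levels, and the rule kept uneven means out of the members, so the sets are not matched. In each group the library with the largest share of counts in members fell at many of these intervals. Besides control P180 islet replicate 3, this was 10.1% of them in control P21 islet replicate 5 and 12.2% in small-litter P21 islet replicate 5. It was 8.12% in small-litter P180 islet replicate 3 and 13.0% in exocrine replicate 5, and the cause was not tested.

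**Figure D4:**
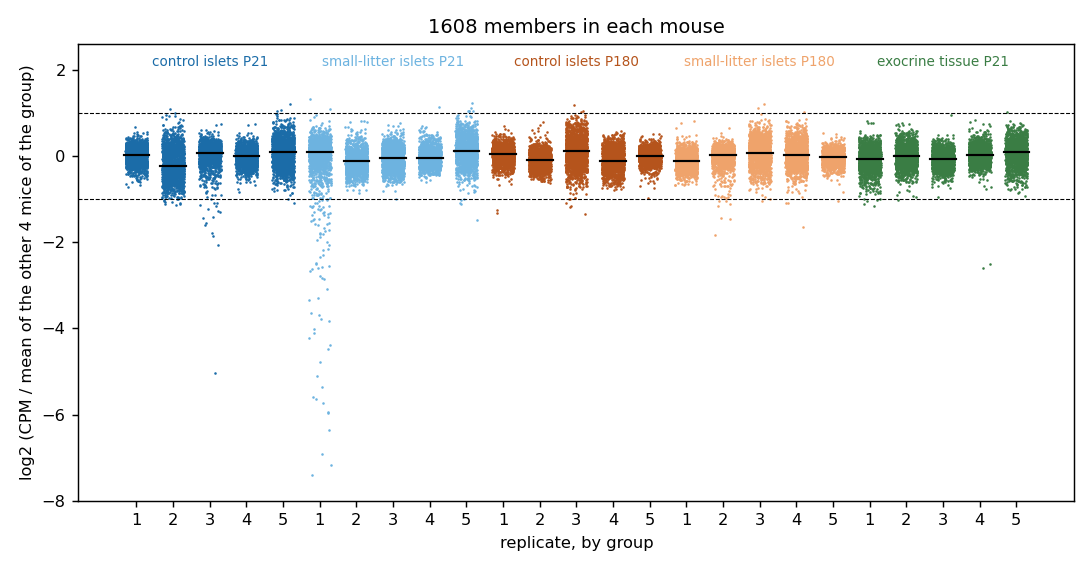
Each of the 1608 members in each mouse, as log2 of its CPM over the mean CPM of the other 4 mice of the group (y axis), with the median per library as a bar and dashed lines at 50% and 200%. Small-litter P21 islet replicate 1 carries a tail of 79 members below the lower line, while 11 libraries have no point below it.

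The deepest of these gaps was at chr18:74186833-74187460. The counts of the 5 small-litter P21 mice were 4, 959, 1590, 782 and 2082, which is 1.27, 234, 196, 234 and 197 CPM, and the exact 95% Poisson interval of the first, which covers counting error only, ran from 0.347 to 3.26 CPM. The next, chr1:9596631-9597302, had 4 counts in the first mouse, with 764, 1422, 643 and 1836 in the others. At chr5:21719105-21719853 the counts were 10, 901, 2447, 909 and 2665, and control P21 islet replicate 3 was low at the same place, with 21 counts or 3.07% of the other mice of its group. Amplified reads are not independent molecules, and the cause of these low values was not tested.

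Some of these libraries were low at shared members. Of the 16 members under 50% in control P21 islet replicate 3, 14 were among the 79 of small-litter P21 islet replicate 1, and so were 7 of the 7 of small-litter P180 islet replicate 2. Control P21 islet replicate 3 and small-litter P180 islet replicate 2 shared 6 members. Of the 9 of control P21 islet replicate 2 and the 4 of small-litter P21 islet replicate 5, 0 were among the 79, and 2 of the 5 of control P180 islet replicate 3 and 1 of the 6 of exocrine replicate 1 were. Small-litter P21 islet replicate 5 is read against a mean that holds replicate 1, whose low values at the 79 lower that mean. Its ratio to the other mice had a median of 1.31 at the 79, against 1.09 over all members. Its 0 was thus largely set by the measure. Over the whole set of 79, control P21 islet replicate 3 was below the other mice of its group at 62 (78.5%), against 36.2% of all members in that library, and small-litter P180 islet replicate 2 at 61 (77.2%), against 45.3%. Exocrine replicate 1 was below its group at 66 of the 79 (83.5%), against 60.4% of all members.

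The 79 were spread over all 19 autosomes. The nearest of them on 1 chromosome were 102103 bp apart, their median length was 761 bp against 829 bp for all members, and their lowest group mean had a median of 151 CPM against 165 CPM. Of the 31 intervals that abut 29 of them, 6 (19.4%) were also under 50% in that library, against 5.07% of the 1065 intervals that abut any member. With small-litter P21 islet replicate 1 left out, 1614 intervals met the rule, 1582 of them members with all libraries, and with the 3 libraries of most zeros left out 1624 did, sharing 1567.

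Members were mostly short within the allowed range. They made up 25.03% of the intervals of 500 to 749 bp, 24.0% of those of 750 to 999 bp and 14.5% of those of 1000 to 1249 bp. The share was 6.29% from 1250 to 1499 bp, 0.969% from 1500 to 1999 bp and 0.417% from 2000 to 2499 bp. Their median length was 829 bp against 1337 bp for the range, and the median level of all intervals went down with length in the same way, from 60.7 CPM in the first class to 9.41 CPM in the last. The median CV of members showed no such order, at 14.2%, 12.5%, 14.7%, 15.2%, 13.3% and 16.9% over these classes. A straight line on length in each library took 15.3% of the members' variance within groups on the log2 scale, and the median shift of each library took 4.54%.

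Along the genome, the members were 9.18% of the intervals of their length on chromosome 16, the lowest share, and 12.9% on chromosome 5, the highest. Of 2045 windows of 1000000 bp with an interval of the length range, 780 held a member, and 76 held 5 or more, with 460 members between them. The window from 80000000 to 81000000 on chromosome 10 held 12 members among 58 intervals, and that from 125000000 to 126000000 on chromosome 5 held 11 among 46. Windows with many members thus also held many intervals.

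Most members had no other member beside them, and 196 did. Intervals abut when they share a restriction site, and 871 members had at least 1 abutting interval in the table, 221 on both sides. Of the 704 intervals of the length range that abut a member, 196 (27.8%) were members themselves. Of the 3825 that abut an interval of the range but no member, 432 (11.3%) were members. The shares were 50% and 23.8% at 500 to 749 bp, 57.4% and 24.6% at 750 to 999 bp, 43.2% and 18.1% at 1000 to 1249 bp and 18.3% and 6.94% at 1250 to 1499 bp. Both sets were chosen by the same level rule, so these shares describe it.

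Of the runs, 1412 held 1 member, 85 held 2, 7 held 3 and 1 held 5. The run of 5 lay at chr15:88986518-88991279. Its group means were 364 to 484 CPM in the first interval, 489 to 600.2 CPM in the second, 353 to 442 CPM in the third, 165 to 178 CPM in the fourth and 275 to 334 CPM in the fifth. The fourth, the longest of them at 1509 bp, was the lowest, and exocrine tissue was the highest group in the other 4. The runs of 3 that the rule for naming took, at chr7:129311138-129313849 and chr4:148335412-148338125, likewise held members that differed in level, with a group mean as low as 105 CPM and as high as 563 CPM in the former. Over libraries, the deviations of abutting members had a median correlation of 0.39 over 103 pairs, against 0.10 over all pairs of members. With the line on length removed these were 0.31 and 0.01, and pairs alike in length within 50 bp had 0.28 before removal. All these points share libraries and depth.

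The intervals next to a member that were not members were nearly always lower. In 863 of 886 such pairs (97.4%) the other interval had the lower mean CPM, in 792 it was over 2-fold lower, and the median log2 ratio was -2.60. That median was -2.58 where the other interval was shorter than 500 bp, -1.65 at 500 to 999 bp, -1.91 at 1000 to 1499 bp, -2.85 at 1500 to 2499 bp and -3.23 above that. Per kilobase, the other interval was lower in 89.5% of pairs, but in only 70.1% where it was shorter than 500 bp, with a median log2 ratio of -0.52 there. Members were chosen for a high level, so the direction follows in part from the choice.

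**Figure D5:**
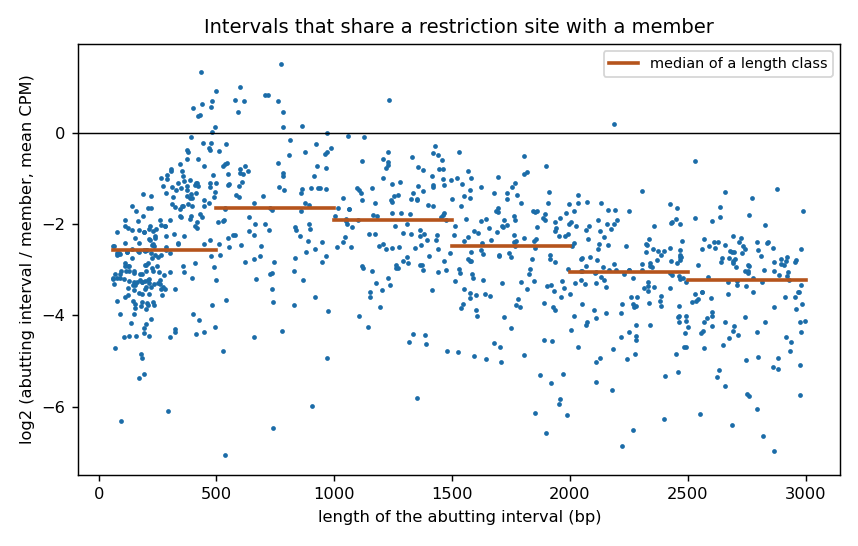
Log2 ratio of the mean CPM of an abutting interval that is no member to that of its member (y axis) against the length of the abutting interval (x axis, bp), 1 point per pair, with orange bars for the median of each length class. Of the 886 points, 863 lie below the line at 0, and the medians are highest for lengths of 500 to 999 bp, at -1.65.

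The widest gap was beside chr7:29152981-29153664. That member had 649.6, 615, 595, 522 and 553 CPM in control P21 islets and 550.1, 641, 593, 664 and 646 CPM in exocrine tissue. The interval that shares its first site, chr7:29152445-29152981, had 2.06, 1.89, 8.58, 5.19 and 4.26 CPM and 7.84, 3.15, 4.54, 7.45 and 5.04 CPM in the same mice. The 2 intervals are 683 and 536 bp long, and over all libraries the member was 134-fold higher. The 2 intervals share 1 site, and methylation of the other sites, amplification and copy number cannot be told apart in these counts. Intervals beside 3 other members, chr15:98908049-98908965, chr5:114187876-114188745 and chr8:122299058-122299836, were 125-fold, 116-fold and 100.3-fold lower.

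Higher neighbours were few. The highest relative to its member was chr5:140237958-140238734, with group means of 280.1 to 452 CPM against 111 to 153 CPM in chr5:140238734-140239973. It was 1 of the 223 intervals over the ratio limit. At chr6:120983798-120984233 and chr10:74456057-74456554 the higher neighbour was shorter than 500 bp and thus outside the length range.

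The intervals next to members were then tested for the study's comparisons, although the rule had used their counts where they lay in its length range; 361 of the 869 lay outside it. Exocrine tissue was compared with control islets at P21 by edgeR's quasi-likelihood test on the 10 libraries, with Benjamini-Hochberg adjustment at 0.05 over 22514 intervals. Of all intervals 22.1% passed, 8.07% higher in exocrine tissue and 14% lower. Of the 869 intervals next to a member 118 were higher (13.6%) and 58 lower (6.67%), which is 20.3% in all. The share called higher was thus above that of all intervals, and the share called lower below it, in each of the 18 settings tried. These settings reuse the same libraries, and the intervals were not matched in level. The split was not particular to the neighbours, since 15.5% of the 1831 intervals at the level limit were higher and 4.70% lower. Of these 869, 20 were over the ratio limit, and leaving those out 12.8% were higher and 6.01% lower. Of the 361 outside the length range 9.97% were higher and 10.5% lower, against 4.80% and 23.5% of all intervals outside it. With the trend on length removed 201 (23.1%) were higher and 50 (5.75%) lower, against 11.9% and 11.8% of all intervals. Without control P21 islet replicate 1, 89 (10.2%) were higher and 33 (3.80%) lower, against 6.11% and 9.71% of all.

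The split held in each class of length. Among neighbours shorter than 500 bp 5.86% were higher and 15.5% lower, against 2.15% and 32.9% of all intervals of that length. At 500 to 999 bp the shares were 20.9% and 9.09%, against 13.6% and 12.4%, and above 2499 bp they were 18.0% and 0.820%, against 10.7% and 2.47%. No test of these shares was made. Islet and exocrine mice did not overlap at 78 of the 118 (66.1%) and at 28 of the 58 (48.3%), against 57.5% and 59.7% of all intervals called in these directions.

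Among these, the largest rise by fold in exocrine tissue was at chr11:119048400-119048900, next to the member chr11:119046967-119048400. Its mean was 48.9 ± 7.39 CPM in control P21 islets and 129 ± 74.3 CPM in exocrine tissue (SD, n = 5), with a log2 fold change of 1.49 ± 0.37 (SE, edgeR adjusted p = 0.0145). A more even case was chr17:47948356-47949683, next to the member chr17:47949683-47950973. It had 46.0, 28.6, 40.3, 45.5 and 36.2 CPM in control P21 islets and 90.8, 96.2, 78.1, 78.8 and 78.9 CPM in exocrine tissue, with a log2 fold change of 1.17 ± 0.16 (SE, edgeR adjusted p = 0.000161). The lowest exocrine mouse was thus well above the highest islet mouse at P21, while 1 control P180 islet mouse reached 90.4 CPM. The other 4 named intervals that rose, chr11:69876991-69879322, chr7:120071207-120072306, chr2:119156957-119157831 and chr8:73313644-73316173, had log2 fold changes of at least 1.13.

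Lower in exocrine tissue by the most was chr18:36823754-36823949, next to the member chr18:36823949-36825025. It had 47.7, 56.2, 30.4, 28.8 and 12.3 CPM in control P21 islets and 9.29, 11.2, 9.28, 9.94 and 10.5 CPM in exocrine tissue, with a log2 fold change of -1.74 ± 0.33 (SE, edgeR adjusted p = 0.00168). The lowest islet mouse, replicate 5, was close to the exocrine mice, and small-litter islets at P21 likewise ran up to 59.5 CPM, with replicate 5 lowest. The other 5 named intervals of this direction, chr19:42833847-42834173, chr17:13693233-13693472, chr12:103899212-103899359, chr1:89617113-89617390 and chr8:36652817-36652988, had log2 fold changes of -1.64 to -1.25. All 6 were short, between 147 and 326 bp. With the trend on length removed the log2 fold change was smaller at all 6. It was -0.75 at chr18:36823754-36823949, -1.01 at chr19:42833847-42834173, -0.82 at chr17:13693233-13693472, -0.45 at chr12:103899212-103899359 and -0.75 at chr1:89617113-89617390. At that setting chr8:36652817-36652988 no longer passed (log2 fold change -0.24, edgeR adjusted p = 0.261), and chr12:103899212-103899359 missed the threshold there and with a replicate block (highest adjusted p = 0.137).

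The same test called 159 members higher and 28 lower in exocrine tissue, 11.6% against 22.1% of all intervals, and since the rule limited this very difference nothing is read from that count. It was 99 without control P21 islet replicate 3 (19.7% of all intervals called), 343 without control P21 islet replicate 5 (26.7% of all) and 117 without exocrine replicate 1 (16.6% of all).

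Age was tested over the 20 islet libraries, P180 against P21 averaged over both litter groups, where 0.212% of all 22654 intervals passed, 0.194% higher at P180 and 0.0177% lower. Of the members, 2 passed, both higher at P180, and as the rule used these means they are given as values and nothing is read from their number. At chr5:76138966-76139812 the P21 mice had 128, 98.4, 119, 123 and 87.0 CPM in control and 134, 97.3, 113, 115 and 91.6 CPM in small-litter islets. The P180 mice had 147, 134, 141, 139 and 166 CPM and 133, 151, 128, 160.4 and 156 CPM. The ranges of the ages overlapped only at the highest small-litter P21 mouse, and the log2 fold change was 0.45. Its exocrine mean at P21 was 137 ± 24.8 CPM (SD, n = 5). The second, chr6:144851205-144851982, had a log2 fold change of 0.42. When any 1 islet library was left out, 0 or 1 of the members passed, against 16 to 50 of all intervals.

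Of the 869 intervals next to members, 0 passed for age with edgeR and 3 (0.345%) with DESeq2, which called 0.596% of all intervals. At an unadjusted p under 0.05 in edgeR there were 56 (6.44%), against 9.57% of all intervals. For litter size at P21, litter size at P180 and the interaction of litter size with age, the background was 0% of 22654 intervals, and 0 members and 0 of their neighbours passed with edgeR or DESeq2. At an unadjusted p under 0.05 in edgeR, the neighbours numbered 7, 5 and 10 and the members 1, 2 and 1 in these 3 comparisons. Of all intervals 0.927%, 0.887% and 0.998% were under it, against 0.806%, 0.575% and 1.15% of the neighbours. Of the members 0.0622%, 0.124% and 0.0622% were. All these shares lay well below the 0.05 of the threshold, so the litter tests were conservative, most of all for members. A difference under the spread between 5 mice was not detectable here, and these counts do not show that the groups are the same.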

How the data were processed

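The values used are raw counts of reads in each interval, deposited by the authors as 1 table without scaling. Per the submitters' processing notes, FastQC 0.10.1, cutadapt, Bowtie 0.12.9 and build mm9 were used. The assignment of reads, the treatment of duplicates, the filter on intervals and the base from which starts count, 0 or 1, were not stated in the labels used here. Amplification by PCR favours some lengths, so levels compare libraries better than intervals.

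CPM was the count divided by the library total, and groups came from the labels. Tests used edgeR 4.0.16 in R 4.3.3 with TMM scaling and filterByExpr; standard errors came from the test statistic, and DESeq2 1.42.0 was an alternative. Models were tested on simulated counts. The spread between mice shared by all intervals, as edgeR estimated it, was 31.7% for tissue and 30.6% for islets.

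The members and lists were chosen with earlier results of these data known. Intervals were named by rule: the 6 highest, the 6 most even, those nearest the limits, the extremes of CV, the longest runs, the neighbours with non-overlapping groups and the largest fold, and the widest gaps to a neighbour. The ribosomal stretch, the windows, the single-mouse gaps and the 2 members called for age were chosen after their values were seen. Sequences and gene annotation are not used here.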

Additional observations from a re-analysis of the deposited data

Results flagged for a closer look

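In 85 sets of 5 mice, each made of 1 measure in 1 group, 5 had a mouse whose gap to the next was more than 0.71 of the whole range, Dixon's limit for 5 samples. Chance flags about 1 in 20 such groups. Exocrine replicate 5 was high in the share of its counts that lay in the members, at 39.5%. Small-litter P21 islet replicate 1 was high both in the standard deviation of its members' log2 deviation, at 0.609, and in the number of members under 50% of the other mice, at 79. Small-litter P21 islet replicate 5 was high at chr11:60280679-60281679, with 501 CPM. Control P21 islet replicate 5 was high in the share of counts in the ribosomal stretch of chromosome 17, at 5.29%.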

How the results depend on the processing

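The number of members depended on the limits: it was 926 at the stricter ratio limit (highest mean at most 25% above the lowest), 3092 at 50 CPM and 554 at 200 CPM. With TMM scaling 1480 intervals met the rule (1425 of them members) and with DESeq2 size factors 1344 did (1318 of them members). The share of counts in members was 33.3% with TMM, 31.7% with DESeq2 size factors, 20.2% at the stricter ratio limit, 39.8% at a ratio of 2, 47.3% at 50 CPM and 18.9% at 200 CPM. The median CV was 16.3% with TMM and 17.02% with DESeq2 size factors. The CV of the intervals over the ratio limit was not computed with these scalings. The neighbour was lower in 93.0% of pairs at the stricter ratio limit, 98.9% at a ratio of 2, 93.3% at 50 CPM and 98.6% at 200 CPM. The share of members among intervals next to one was 23.1% with DESeq2 size factors, 16.8% at the stricter ratio limit, 41.1% at 50 CPM and 16.3% at 200 CPM. Combinations of member and mouse under 50% numbered 133 with TMM and 150 with DESeq2 size factors.

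Age calls among neighbours were 1 (0.132%) with a mean of at least 50 counts, 3 (0.345%) with DESeq2 and 1 (0.115%) with the length trend removed. Of all intervals 0.284%, 0.596% and 0.472% were called in these settings. Tissue calls among members were 285 with DESeq2 (26.4% of all intervals called), 327 with the length trend removed (23.7% of all), 319 with all 25 libraries in 1 fit (28.3% of all) and 99 without the 3 libraries of most zeros (19.7% of all). Only control P21 islet replicate 3 of those 3 is in the tissue fit. Age calls among members were 4 (0.249%) with DESeq2 and with the length trend removed, and 0 without those 3 libraries. Of all intervals 0.596%, 0.472% and 0.0221% were called there. The number was 1 (0.0622%) with RLE scaling, no filter, a mean of at least 50 counts, a replicate block and all 25 libraries. In these, 0.199%, 0.185%, 0.284%, 0.199% and 0.215% of all intervals were called. With 1 mouse left out, members numbered 1537 to 1652, their share of counts was 33.4% to 36.1%, their median CV 13.0% to 14.1%, the share of lower neighbours 96.5% to 97.8% and the share of members next to members 26.5% to 28.6%. Tissue calls then numbered 122 to 224 among neighbours and 99 to 343 among members. The 122 (14.0%) came without control P21 islet replicate 1 or exocrine replicate 1, against 15.8% and 16.6% of all intervals. The 224 (25.8%) and the 343 (21.3%) came without control P21 islet replicate 5, against 26.7% of all. The 99 (6.16%) came without control P21 islet replicate 3, against 19.7% of all. Age calls were 0 to 1 among each, against 16 to 50 of all intervals, and litter calls 0 throughout.

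No pairing of mice by replicate number was seen across tissues, though correlations over the members cannot exclude one. Across tissues, correlations of same-numbered mice ran from -0.271 to 0.0614, with 0 of 5 closest to their own number. In no comparison were all 5 pairs over 0.1. Between control and small-litter islets the correlations ran from -0.215 to 0.685 at P21 (3 of 5 over 0.1, 3 closest to their own number). At P180 they ran from 0.0341 to 0.588 (4 over 0.1, 2 closest). The labels state no pairing, and whether same-numbered mice of an age share anything was not tested. With the replicate number as a block, tissue calls numbered 119 among neighbours (13.7%) and 194 among members (12.1%), against 15.2% of all intervals, and age calls 0 and 1, against 0.199% of all. Litter calls were 0. The cause of these changes was not tested. Depth limits the members little, since the median library's lowest member count was 319, but the neighbours, at a median of 34.1 CPM, were counted less precisely.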
